A study of Mus musculus with 6 samples.

Results

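The peaks of accessible chromatin around 7 genes of the cholesterol synthesis pathway, Hmgcs1, Idi1, Sqle, Cyp51, Dhcr7, Insig1 and Srebf2, were compared between mouse leukaemia cells exposed to oil and to tamoxifen. A peak was taken when the deposited table named 1 of these genes as the nearest and placed the peak within 100000 bp of its transcription start site (TSS). This gave 57 of the 175929 peaks in the table. The rule used gene names and distances and no measured change, but the genes themselves were chosen with earlier results of these data known. In this set 47 peaks (82.5%) were present in the peak lists of both groups, 7 (12.3%) in the oil list alone and 3 (5.26%) in the tamoxifen list alone. The shares over all peaks were 71.4%, 17.4% and 11.2%.

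ATAC-seq, in which a transposase cuts open DNA and tags it for sequencing, was performed on 3 libraries per group. All 6 libraries came from Usp18+/f UBCER-Cre AE9a leukaemia, that is, fetal liver cells made leukaemic by a retrovirus that expresses GFP and AE9a, a truncated AML1-ETO fusion protein, and carrying 1 floxed allele of the protease gene Usp18 and a Cre that tamoxifen activates. The Cre is driven by the ubiquitin C promoter, which is active in most cell types, and the cells grew in irradiated recipient mice. Once the recipients were sick they were injected with oil (replicates 1, 2 and 4; Usp18+/f) or with tamoxifen (replicates 1, 3 and 4; Usp18+/Δ), and the spleen was taken 3 days after injections began to sort GFP+ Lin- c-Kit+ cells. The mice were young adults of both sexes. The tamoxifen group alone received the drug and alone lost the Usp18 allele, so the 2 cannot be told apart here. The methods for RNA from the same sorted cells give a number of mice per group that equals the number of libraries here, but the labels do not tie a library to a mouse, so each SD, n and p-value is stated over libraries, and part of their spread may be technical.

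Cholesterol is built from acetyl-CoA through mevalonate, isoprenoid units, squalene and a series of sterols. When membrane cholesterol is low, the carrier protein SCAP takes the transcription factor SREBP2 from the endoplasmic reticulum to the Golgi, where proteases release its active part, and when cholesterol is high, INSIG1 holds the complex back. Released SREBP2 binds sterol regulatory elements, usually beside sites for the factors NF-Y and Sp1, at nearly every gene of the pathway, including Insig1 and its own gene Srebf2. Tamoxifen is best known as a ligand of the estrogen receptor, and it also binds with high affinity to the antiestrogen binding site, which is formed by the sterol enzymes EBP and DHCR7, and so impairs late steps of the pathway.

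The promoter sequences are shown first because SREBP2 is known to act on the pathway through short motifs in its promoters. RefSeq windows of 300 bases (250 before and 50 after the start, GRCm38.p6, the assembly that mm10 follows) were matched for 6 of the 7 genes, all but Sqle, and each overlapped a peak. They are written 5′ to 3′ on the strand of the gene, and capitals mark CCAAT or its reverse complement ATTGG (the NF-Y motif) and 2 forms of the sterol regulatory element, CACNCCAC and TCACCNCA, searched on both strands. The windows lie at chr13:119690101-119690400 (Hmgcs1, plus strand), chr13:8885356-8885655 (Idi1, plus), chr5:4104648-4104947 (Cyp51, minus), chr7:143829964-143830263 (Dhcr7, plus), chr5:28071162-28071461 (Insig1, plus) and chr15:82147019-82147318 (Srebf2, plus).
Hmgcs1: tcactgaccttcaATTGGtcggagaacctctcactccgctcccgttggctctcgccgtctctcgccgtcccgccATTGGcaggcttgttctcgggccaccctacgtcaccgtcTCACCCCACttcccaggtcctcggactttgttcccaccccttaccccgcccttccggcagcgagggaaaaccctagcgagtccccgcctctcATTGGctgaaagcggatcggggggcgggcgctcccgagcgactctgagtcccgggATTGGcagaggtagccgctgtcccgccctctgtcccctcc
Idi1: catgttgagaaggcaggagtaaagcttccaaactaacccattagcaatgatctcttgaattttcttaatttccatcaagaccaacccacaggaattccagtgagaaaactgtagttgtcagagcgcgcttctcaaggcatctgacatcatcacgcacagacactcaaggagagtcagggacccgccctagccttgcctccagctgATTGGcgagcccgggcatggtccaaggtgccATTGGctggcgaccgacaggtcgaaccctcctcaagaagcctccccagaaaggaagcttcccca
Cyp51: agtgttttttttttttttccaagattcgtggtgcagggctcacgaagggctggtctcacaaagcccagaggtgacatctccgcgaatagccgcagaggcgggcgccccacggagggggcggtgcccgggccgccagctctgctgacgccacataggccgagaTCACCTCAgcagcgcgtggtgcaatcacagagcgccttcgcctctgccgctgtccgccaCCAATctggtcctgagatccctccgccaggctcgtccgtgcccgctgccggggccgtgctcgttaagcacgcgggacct
Dhcr7: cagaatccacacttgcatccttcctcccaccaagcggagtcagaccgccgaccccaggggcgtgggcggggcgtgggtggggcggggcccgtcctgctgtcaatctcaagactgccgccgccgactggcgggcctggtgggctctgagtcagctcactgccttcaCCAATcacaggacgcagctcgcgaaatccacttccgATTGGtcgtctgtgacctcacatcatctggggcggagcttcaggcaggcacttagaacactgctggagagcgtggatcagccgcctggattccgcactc
Insig1: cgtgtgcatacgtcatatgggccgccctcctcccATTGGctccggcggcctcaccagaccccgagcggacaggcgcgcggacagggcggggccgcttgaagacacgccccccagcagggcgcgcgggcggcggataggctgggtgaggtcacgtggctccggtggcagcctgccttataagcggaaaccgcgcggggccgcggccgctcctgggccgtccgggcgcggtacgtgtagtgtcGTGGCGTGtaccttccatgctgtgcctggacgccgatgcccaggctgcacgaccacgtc
Srebf2: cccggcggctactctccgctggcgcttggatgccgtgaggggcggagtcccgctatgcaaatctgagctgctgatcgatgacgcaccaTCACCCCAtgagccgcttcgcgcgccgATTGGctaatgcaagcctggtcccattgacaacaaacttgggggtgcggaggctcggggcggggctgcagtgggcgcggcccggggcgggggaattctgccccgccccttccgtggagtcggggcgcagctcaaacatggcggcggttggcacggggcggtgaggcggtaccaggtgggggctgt

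CCAAT was present in 6 of 6 windows, against 37.4% of all 32851 RefSeq promoter windows and 37.3% of the 14353 that a peak overlapped. The Sp1 motif GGGCGG, not in capitals, was also present in 6 of 6, against 35.7% and 62.9%. CACNCCAC matched in 2 windows (Hmgcs1 and Insig1), against 6.24% and 6.4%. TCACCNCA, a variant form chosen after the sequences were seen, matched in 3 windows (Hmgcs1, Cyp51 and Srebf2), against 4.42% and 4.15%, and the Hmgcs1 matches of the 2 forms overlap. The E-box CACGTG was present in the Insig1 window alone, against 7.15% and 10.2%. TGTGGT, the core motif of the RUNX family to which AML1 belongs, had 0 matches in the 6 windows, against 16.8% of all windows and 12.8% of those with a peak. A match is a description of the letters and was not tested as a binding site.

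At none (0) of the 7 genes did a peak pass the test. The single peak nearest the start site of each gene differed between the groups by at most 0.040 on the log2 scale. Over the 12 peaks within 1000 bp of a TSS, the log2 fold changes ran from -0.39 to 0.040. By DESeq2 with Benjamini-Hochberg adjustment over all peaks, 0 of the 57 peaks were called (fold change over 2 and adjusted p under 0.05), against 0.641% of all peaks, and 0 reached an adjusted p under 0.05, against 1.38%. At an unadjusted p under 0.05 there were 3 peaks (5.26%), against 8.98% of all peaks, with 2 higher and 1 lower after tamoxifen. The edgeR quasi-likelihood test called 1 peak, the Cyp51 peak at +54746 bp (all peaks, 1.01%), and put 2 at an adjusted p under 0.05 (all peaks, 2.91%) and 11 (19.3%) at an unadjusted p under 0.05 (all peaks, 17.7%). The 3 tamoxifen values lay wholly to 1 side of the 3 oil values at 11 peaks (19.3%; 3 higher and 8 lower). The share was 21.9% of all peaks (20875 higher and 17602 lower). Some of the lower member peaks were in the oil list alone, and some of the higher ones in the tamoxifen list alone. Over all peaks, the log2 normalised tags of tamoxifen replicate 4 had a Pearson's r of 0.96 to 0.964 with the oil libraries. With tamoxifen replicates 1 and 3 its r was 0.949 and 0.95, and those 2 gave 0.968 with each other. Without tamoxifen replicate 4, DESeq2 called 0 of the 57 and put 1 at an adjusted p under 0.05 (all peaks, 1.47% and 3.73%).

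**Figure D1:**
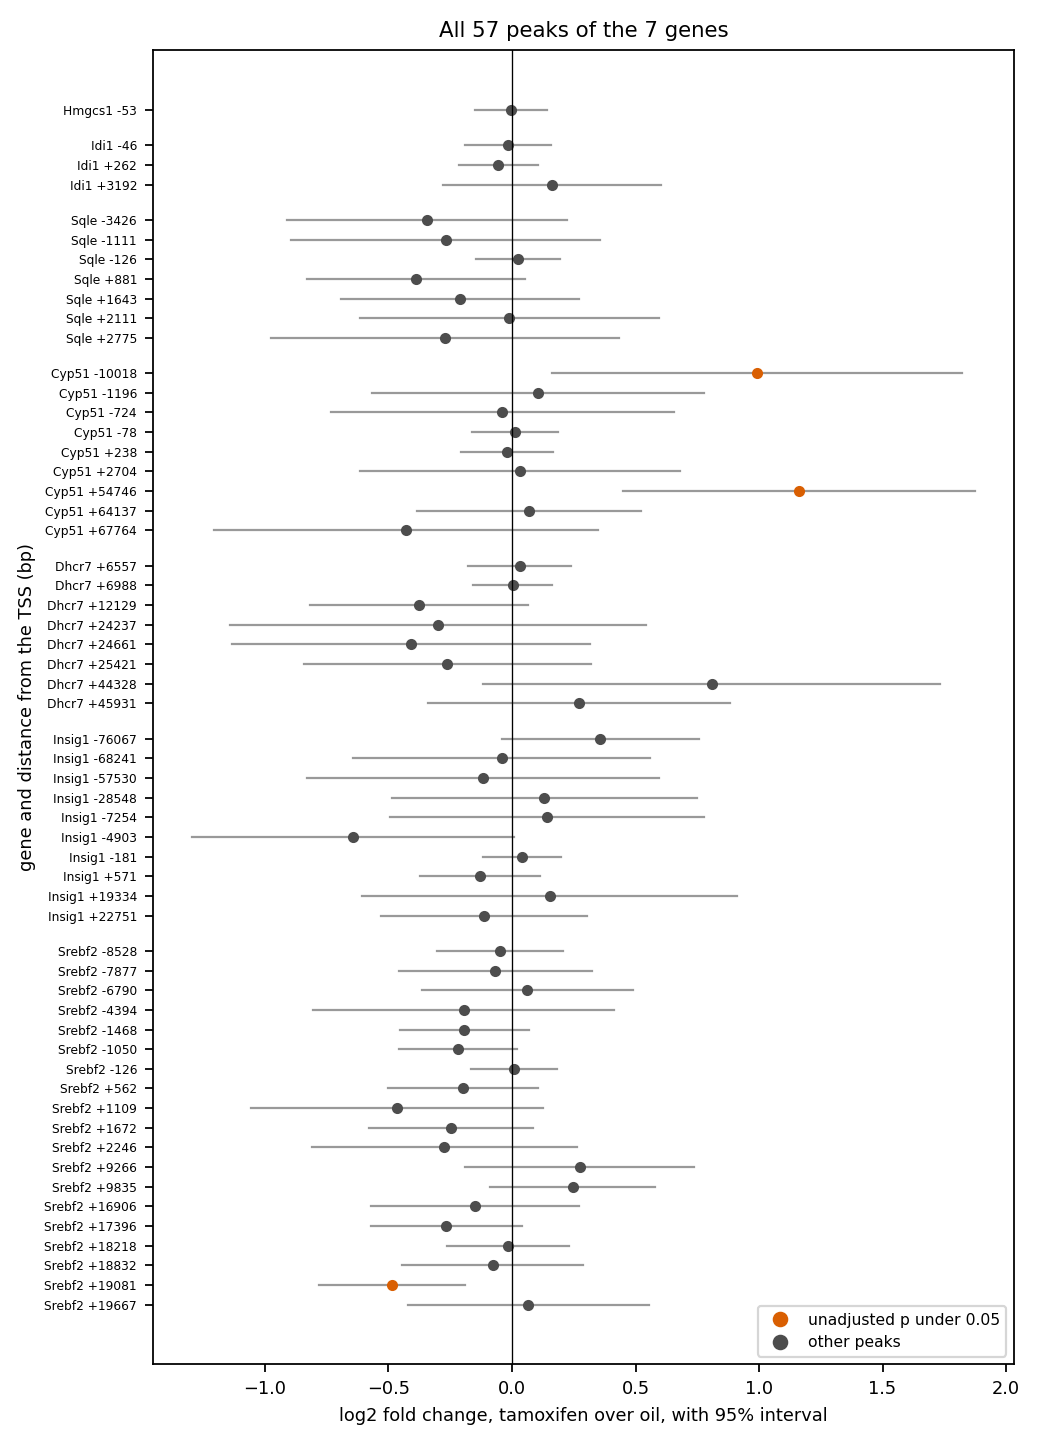
The log2 fold change of tamoxifen over oil (x axis) with its 95% interval for each of the 57 peaks, grouped by gene and ordered by distance from the TSS (y axis); orange points mark the 3 peaks with an unadjusted p under 0.05. The intervals of the peaks nearest a TSS are narrow and include 0, and the widest intervals belong to weak peaks away from the starts.

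The median log2 fold change of the 57 peaks was -0.042, against -0.0015 over all peaks, and 35 of 57 (61.4%) lay below 0, against 50.3% of all peaks. In each library the median of the 57 peaks relative to the oil mean was 0.030, 0.016 and -0.024 on the log2 scale in oil replicates 1, 2 and 4, and -0.047, -0.051 and -0.056 in tamoxifen replicates 1, 3 and 4. The groups did not overlap in this median, but its shift was small and depended on single libraries, being -0.017 without tamoxifen replicate 4 and -0.066 without oil replicate 4. How often the median of other sets of peaks separates in this way was not tested. Of the 57 peaks, 19 belong to Srebf2 alone. The 12 peaks within 1000 bp of a TSS had a median of -0.018 (all peaks within that distance, -0.0035). The 11 peaks from 1000 to 3000 bp had a median of -0.22 with 9 below 0 (all such peaks, -0.052, 58.0% below 0). These 11 peaks belonged to 3 genes, with 5 of 5 below 0 at Srebf2, 4 of 4 at Sqle and 0 of 2 at Cyp51. The 34 farther peaks had a median of -0.029 (all such peaks, 0.011). The difference between these distance classes was not tested.

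Hmgcs1 encodes the cytosolic HMG-CoA synthase, an early enzyme of the mevalonate route. It had a single peak, at its promoter (chr13:119690126-119690471), and the highest tag count of the set. That peak held 1065, 1052 and 1041 normalised tags (tags divided by the size factor of the library) after oil, and 1041, 1113 and 995.9 after tamoxifen. The ranges overlapped, and the means were 1053 ± 12.3 and 1050 ± 59.0 (SD, n = 3 each), a log2 fold change of -0.0044 (95% interval -0.15 to 0.14; DESeq2 adjusted p = 0.998).

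Idi1, whose enzyme interconverts the isoprenoid units from which sterols are built, had 2 promoter peaks. The one nearest the TSS (chr13:8885440-8885680) held 624.2, 589.2 and 570.2 tags after oil and 570.4, 602.7 and 588.8 after tamoxifen. The tamoxifen values lay within the oil range (log2 fold change -0.017, 95% interval -0.19 to 0.16). The taller one, at +262 bp, held 758.7, 724.8 and 723.5 tags after oil and 698.1, 729.7 and 695.0 after tamoxifen. Its ranges overlapped (log2 fold change -0.056, 95% interval -0.22 to 0.10). The overlapping gene Gm48574 covers the same promoter, and ATAC-seq tags do not tell the 2 apart.

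Sqle encodes squalene epoxidase, a rate-limiting enzyme of the sterol branch. Its promoter peak (chr15:59314863-59315070) held 894.4, 806.7 and 784.4 tags after oil and 837.3, 905.7 and 783.5 after tamoxifen. The values of the 2 groups interleaved (log2 fold change 0.024, 95% interval -0.15 to 0.19). Per 100 bp this peak was the most open of the promoters described here, at percentile 99.5 among the 30410 peaks within 1000 bp of a TSS.

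Cyp51 encodes the enzyme that removes a methyl group from lanosterol. Its promoter peak (chr5:4104665-4104886) held 647.3, 653.5 and 621.3 tags after oil and 657.5, 680.7 and 601.8 after tamoxifen. Tamoxifen replicates 3 and 4 gave the highest and the lowest value, so the oil values lay inside the tamoxifen range (log2 fold change 0.012, 95% interval -0.16 to 0.18).

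Dhcr7 encodes the enzyme of the last step, which reduces 7-dehydrocholesterol to cholesterol, and is 1 of the 2 proteins of the antiestrogen binding site. The TSS used by the table had no peak, and the nearest peaks lay at +6557 and +6988 bp. Both contain annotated GENCODE starts of Dhcr7 and were taken as its active promoter. The taller of them (chr7:143830010-143830300) held 765.3, 745.2 and 715.4 tags after oil and 757.0, 745.3 and 726.7 after tamoxifen. All 3 tamoxifen values lay within the oil range, and the log2 fold change was 0.0027 (95% interval -0.16 to 0.16). The weaker peak (chr7:143829624-143829824) gave 372.7, 358.0 and 364.9 tags after oil and 389.6, 378.8 and 351.2 after tamoxifen. There too the ranges overlapped, with a log2 fold change of 0.031 (95% interval -0.18 to 0.24).

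Of the 2 regulators, Insig1 encodes the protein that retains SREBP in the endoplasmic reticulum and is itself a sensitive SREBP target. Its promoter peak (chr5:28071115-28071347) held 844.7, 817.4 and 776.3 tags after oil and 845.0, 871.2 and 790.0 after tamoxifen, which overlap (log2 fold change 0.040, 95% interval -0.12 to 0.20). Srebf2 encodes SREBP2, the transcription factor of the pathway. Its promoter peak (chr15:82147043-82147243) held 767.5, 737.4 and 664.3 tags after oil and 718.4, 773.2 and 689.4 after tamoxifen, again overlapping (log2 fold change 0.0081, 95% interval -0.17 to 0.18).

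**Figure D2:**
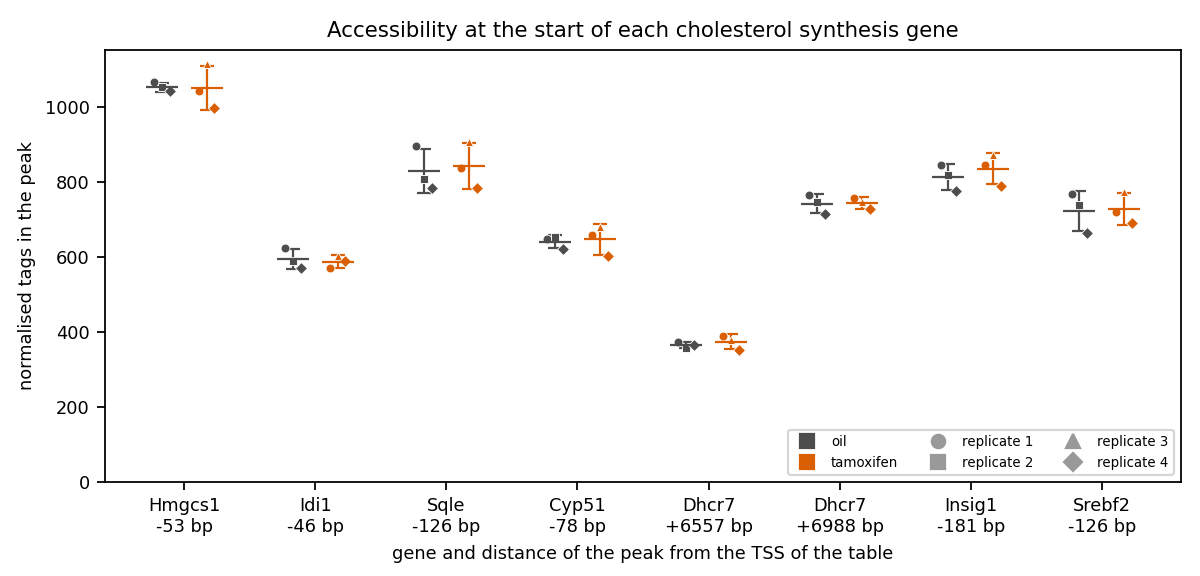
Normalised tags (y axis) of the peak nearest the TSS of each gene, with both Dhcr7 promoter peaks, in the 3 oil (grey) and 3 tamoxifen (orange) libraries; points are libraries, horizontal marks the mean and bars the SD. The groups overlap at every peak drawn.

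Over the 7 peaks nearest a TSS the log2 fold changes ran from -0.017 to 0.040, and their 95% intervals together spanned folds of 0.876 to 1.18. The smallest unadjusted p was 0.625. These intervals rest on the spread between libraries and on tags that were limited to 3 per position. Among all 7053 peaks with over 500 tags on average, 5% to 95% of the log2 fold changes fell between -0.090 and 0.089 and 0.269% reached an adjusted p under 0.05, against -0.58 to 0.71 among the 86819 peaks with under 50 tags. How far the limit itself lowered changes at tall promoters was not tested. In bulk cells, a change in how many cells hold a site open and a change in how open it is in each cell cannot be told apart.

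**Figure D3:**
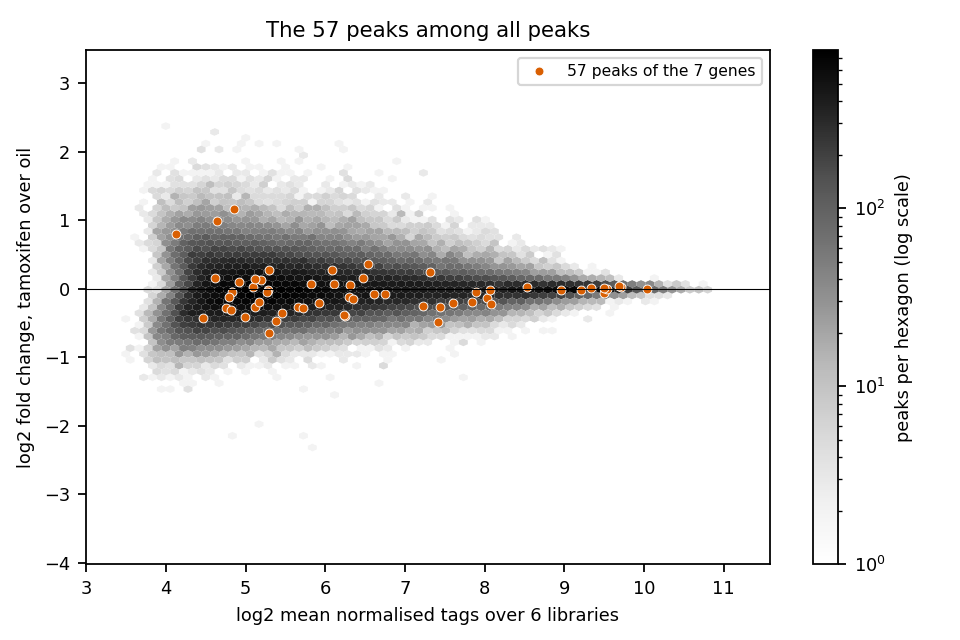
Log2 fold change (y axis) against log2 mean normalised tags (x axis) for all peaks (grey hexagons, darker where more peaks fall) and for the 57 peaks (orange). The 8 peaks with over 500 tags lie between -0.056 and 0.040, inside the narrow spread of all tall peaks.

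Srebf2 had the most peaks, 19, and was the 1 gene of the 7 whose summed tags did not overlap between groups, as was the case at 28.0% of all 19781 genes with peaks. Its peaks summed to 3369, 3447 and 3115 normalised tags after oil and 3096, 3104 and 3062 after tamoxifen, a log2 ratio of means of -0.10, with oil replicate 4 only just above the highest tamoxifen library. The ratios of the other genes ran from -0.050 (Sqle) to 0.038 (Cyp51). Around the Srebf2 start, from -1468 to +2246 bp, 6 of 7 peaks were below 0, the promoter peak being the exception. Of all peaks within 3000 bp of a TSS, 54.3% were below 0. In intron 1, 2 peaks near +9 kb were above 0 (0.25 and 0.27), and 5 of 6 peaks from +16906 to +19667 bp were below 0. Of all peaks over 3000 bp from a TSS, 48.5% were below 0. Neighbouring peaks were counted separately, also those 14 bp apart, and these counts were not tested. Of the 19 peaks, 1 had an unadjusted p under 0.05.

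That peak (chr15:82166239-82166462, +19081 bp, intron 1) had the smallest p of the 57. It held 204.0, 206.8 and 187.4 tags after oil and 147.9, 128.1 and 150.0 after tamoxifen. Every tamoxifen library lay below every oil library. The log2 fold change was -0.49 (95% interval -0.78 to -0.19; unadjusted p = 0.00135), and the DESeq2 adjusted p of 0.0787 missed the threshold. It passed with edgeR (adjusted p = 0.0205) and with DESeq2 without tamoxifen replicate 4 (adjusted p = 0.0423). The DESeq2 adjusted p was 0.226 to 0.692 without any 1 of the other libraries and 0.124 with proximal and distal peaks fitted separately. The next peak upstream, 14 bp away at +18832 bp, held 102.6, 125.8 and 104.0 tags after oil and 108.3, 99.15 and 107.1 after tamoxifen and overlapped between groups (log2 fold change -0.079).

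**Figure D4:**
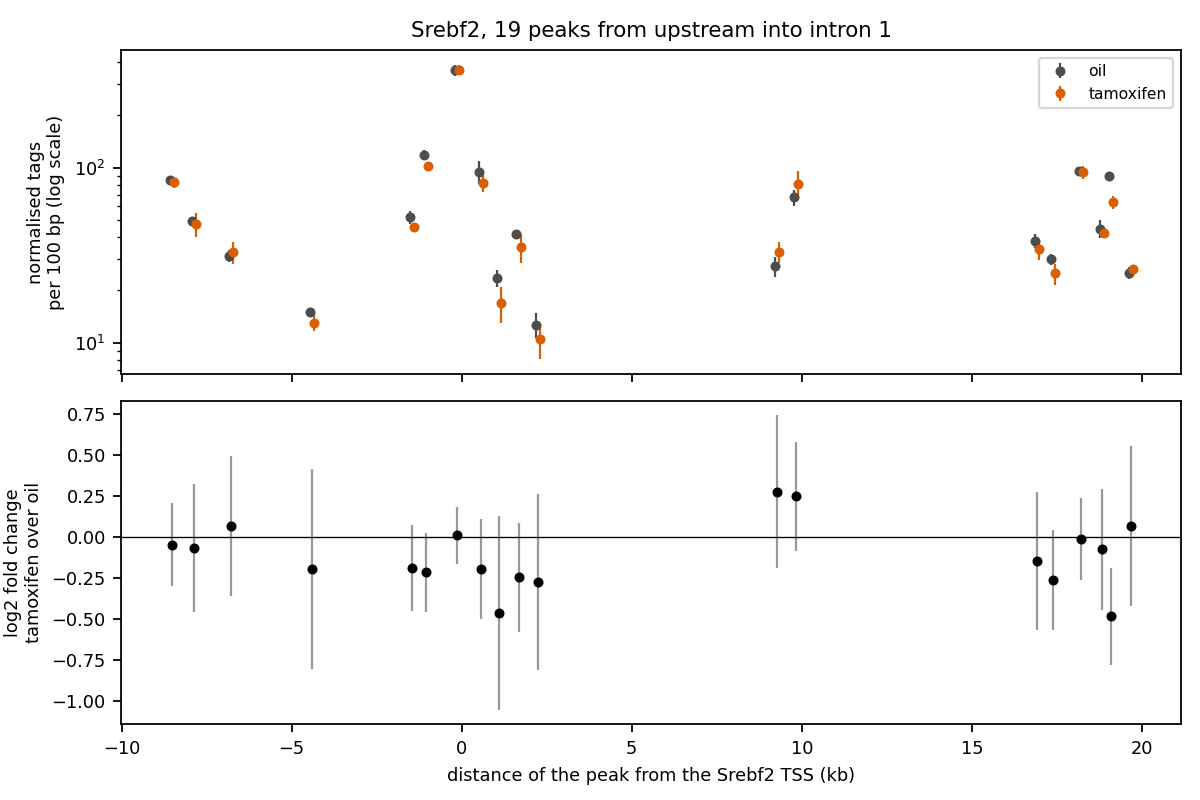
The 19 Srebf2 peaks by distance from the TSS in kb (x axis): mean normalised tags per 100 bp with the SD of 3 libraries on a log scale (upper panel; grey oil, orange tamoxifen) and log2 fold change with its 95% interval (lower panel). The peak at +19081 bp is the only one whose interval excludes 0.

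At Cyp51, 2 weak peaks that were in the tamoxifen list alone were higher after tamoxifen at an unadjusted p under 0.05. A peak called in 1 group alone enters the table through that group, so such peaks lean towards a difference. The first (chr5:4049813-4050089, +54746 bp) lies in an intron of the neighbouring gene Akap9, which encodes a scaffold protein of the Golgi and centrosome. It held 22.1, 13.7 and 17.9 tags after oil and 42.5, 35.6 and 41.0 after tamoxifen, without overlap. The log2 fold change was 1.16 (95% interval 0.45 to 1.87; unadjusted p = 0.00141; DESeq2 adjusted p = 0.0810, edgeR adjusted p = 0.00956). Where DESeq2 gave an adjusted p without 1 library, it was 0.0993 to 0.626. The other (chr5:4114612-4114818, -10018 bp) held 6.62, 17.6 and 25.1 tags after oil and 32.9, 39.0 and 27.9 after tamoxifen. The groups did not overlap, but oil replicate 1 was far below the other oil libraries. The log2 fold change of 0.99 (95% interval 0.16 to 1.82; DESeq2 adjusted p = 0.364) was 0.63 without that library, with an unadjusted p of 0.152.

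The intronic Srebf2 and Akap9 peaks had the 2 smallest p-values of the set, and their sequences are given for that reason, Srebf2 on the plus and Cyp51 on the minus strand of GRCm38.p6, with ATTGG in capitals. The Cyp51 peak has 1 match of the NF-Y motif, and the Srebf2 peak has none of the motifs searched.
Srebf2 +19081: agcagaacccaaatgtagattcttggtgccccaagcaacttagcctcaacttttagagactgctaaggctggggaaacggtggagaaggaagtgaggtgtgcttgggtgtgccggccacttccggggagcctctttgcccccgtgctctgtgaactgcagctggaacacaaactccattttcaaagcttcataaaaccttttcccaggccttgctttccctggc
Cyp51 +54746: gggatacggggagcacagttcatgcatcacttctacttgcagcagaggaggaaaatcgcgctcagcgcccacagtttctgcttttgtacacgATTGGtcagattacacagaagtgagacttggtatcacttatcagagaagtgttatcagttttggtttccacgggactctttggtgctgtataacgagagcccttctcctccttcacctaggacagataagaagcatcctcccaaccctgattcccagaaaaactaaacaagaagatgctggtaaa

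Of the 10 peaks with the smallest p, the other 7 had DESeq2 adjusted p-values of 0.570 to 0.688. Insig1 at -4903 bp, a peak of the oil list alone, held 49.6, 37.1 and 56.5 tags after oil and 26.1, 21.2 and 43.8 after tamoxifen. Such a peak leans towards a lower value after tamoxifen. These ranges overlapped, because tamoxifen replicate 4 lay above oil replicate 2 (log2 fold change -0.64, 95% interval -1.30 to 0.0092). Insig1 at -76067 bp gave 87.1, 78.0 and 78.9 tags after oil and 98.6, 122.5 and 92.2 after tamoxifen, without overlap (0.36, 95% interval -0.041 to 0.76). Sqle at +881 bp gave 97.0, 89.7 and 71.7 against 65.8, 59.0 and 71.7 tags, and the highest tamoxifen library met the lowest oil library (-0.39, 95% interval -0.83 to 0.054). Dhcr7 at +44328 bp, a peak of the tamoxifen list alone that lies inside the neighbouring gene Gm498, gave 9.93, 14.6 and 13.4 against 13.5, 24.5 and 28.9 tags (0.81, 95% interval -0.12 to 1.73). At Dhcr7 +12129 bp, within the gene, 80.5, 79.0 and 95.03 tags after oil stood against 56.1, 64.6 and 75.5 after tamoxifen. The groups were apart there, with a log2 fold change of -0.38 (95% interval -0.82 to 0.064). The remaining 2 belong to Srebf2, at -1050 bp (-0.22) and +17396 bp (-0.27), and both intervals reach past 0.

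The most open distal peak of each gene, where it had one over 3000 bp from its TSS, overlapped between groups at Idi1 (+3192 bp, log2 fold change 0.16), Cyp51 (+64137 bp, 0.069) and Srebf2 (+18218 bp, -0.015). At Insig1 (+22751 bp) the change was -0.11, and at Sqle (-3426 bp, in an exon of Zfp572) it was -0.35 with 57.3, 46.8 and 43.9 tags after oil and 39.6, 32.3 and 43.8 after tamoxifen. The Sqle groups were apart by a margin far smaller than the spread within either. Standard errors were larger at peaks with fewer tags. The 10 peaks with over 300 tags after oil had a median standard error of 0.087 on the log2 scale, and the 22 with under 50 tags one of 0.34.

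The rest of the pathway was followed with 37 further genes, of which 36 (all but Elovl6) had peaks, 434 in all. Of these, 5 (1.15%, at 4 genes) rose at an adjusted p under 0.05 and 0 fell by DESeq2, and 1 (0.23%) was called, shares below the 1.38% and 0.641% of all peaks. Of the 2430 peaks at an adjusted p under 0.05 in the whole table, 2137 were higher after tamoxifen. At an unadjusted p under 0.05 there were 41 (9.45%; 24 higher and 17 lower), close to the 8.98% of all peaks, and the median log2 fold change was -0.025. By role, 4 of the 5 belonged to the 141 peaks of the other 16 synthesis enzymes and 1 to the 52 peaks of LXR and efflux genes. None (0) was found among 49 peaks of SREBP control genes (2 at an unadjusted p), 98 of uptake and transport genes (13) and 94 of fatty acid synthesis genes (7) by DESeq2.

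Fdft1 encodes squalene synthase, which commits the pathway to sterols. Its peak in intron 1 (chr14:63171009-63171281, +6742 bp) held 35.3, 37.1 and 49.3 tags after oil and 90.9, 98.0 and 89.4 after tamoxifen. The groups were far apart, with a log2 fold change of 1.19 (SE 0.24; DESeq2 adjusted p = 0.000389), whereas the Fdft1 promoter peak gave -0.011. Lss, whose enzyme cyclises the epoxide made by SQLE, had a peak in intron 11 (chr10:76543026-76543263) with 72.8, 71.2 and 73.5 tags after oil and 118.0, 167.1 and 109.9 after tamoxifen. The rise was 0.85 (SE 0.21; DESeq2 adjusted p = 0.00648), with tamoxifen replicate 3 well above the others, and the Lss promoter peak gave -0.024. Without any 1 of oil replicates 1, 2 and 4 or tamoxifen replicate 3 the Lss adjusted p was 0.086 to 0.417.

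Mvk, the mevalonate kinase gene, had 2 intergenic peaks that rose, at +38648 bp (0.67, DESeq2 adjusted p = 0.00437) and +61364 bp (0.60, DESeq2 adjusted p = 0.0154). The first held 175.3, 172.7 and 156.9 tags after oil and 297.8, 303.0 and 203.1 after tamoxifen, so that tamoxifen replicate 4 stood nearest to the oil libraries. Its adjusted p was 0.0635 to 0.201 without any 1 of oil replicates 2 and 4 or tamoxifen replicates 1 and 3, and that of the second peak was 0.0756 to 0.471 without any 1 library other than tamoxifen replicate 4 and 0.0578 with proximal and distal peaks fitted separately. Abca1 encodes the transporter that exports cholesterol to lipoproteins and is a target of the oxysterol receptor LXR. Its promoter peak (chr4:53159854-53160111) held 448.8, 424.3 and 421.3 tags after oil and 546.3, 610.5 and 510.5 after tamoxifen. The rise was 0.36 (SE 0.10; DESeq2 adjusted p = 0.0274), and no tamoxifen library overlapped an oil library. Without any 1 of oil replicates 1, 2 and 4 or tamoxifen replicates 1 and 3 the Abca1 adjusted p was 0.132 to 0.503, and with scaling to tags in peaks it was 0.0634.

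**Figure D5:**
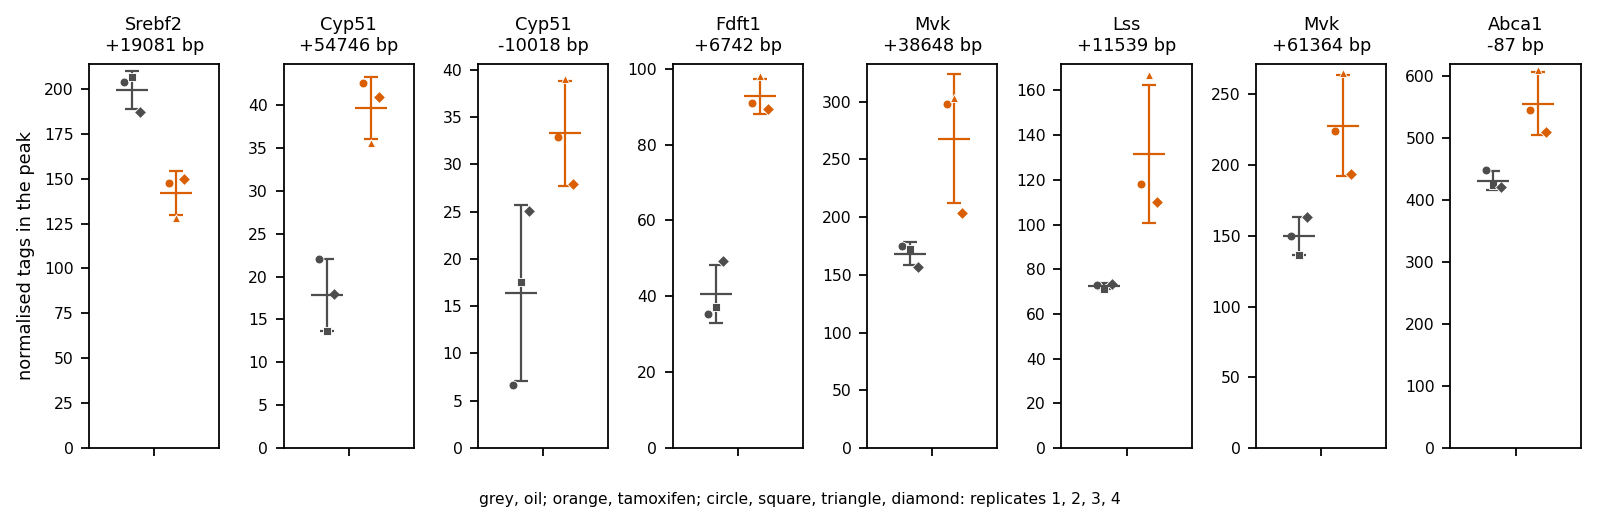
Normalised tags (y axis, from 0) of the 3 peaks of the 7 genes with the smallest p and of the 5 peaks of other pathway genes at an adjusted p under 0.05, in oil (grey) and tamoxifen (orange) libraries, with mean and SD. In all 8 panels the groups do not overlap, and the Srebf2 peak is the only one that is lower after tamoxifen. The peaks were chosen by p, which favours such separation, and 21.9% of all peaks do not overlap.

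Over the 32 further genes with a peak within 1000 bp of the TSS, the log2 fold changes of the nearest peak ran from -0.36 to 0.36 with a median of -0.0098, and 3 had an unadjusted p under 0.05. Besides Abca1 these were, named after their values were seen, the desaturase genes Fads2 (-0.36, DESeq2 adjusted p = 0.363) and Scd1 (-0.22, DESeq2 adjusted p = 0.362). Ebp, the other protein of the antiestrogen binding site, gave 183.1, 176.6 and 147.0 tags against 146.0, 140.4 and 169.6 (-0.15, 95% interval -0.46 to 0.17), with overlap. This nearest peak was not the tallest of the 5 at Ebp, with an oil mean of 168.9 against 539.6. Of the 5 peaks, 4 lay below 0 (all peaks, 50.3%), and 0 had an unadjusted p under 0.05 by DESeq2 (all peaks, 8.98%).

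Libraries held 57.4 to 74.7 M tags in total (1 M being 1000000), of which 17.5 to 21.1 M fell in peaks. The Usp18 promoter peak, the targeted gene, was at 415.5 to 458.8 tags after oil and 438.8 to 469.0 after tamoxifen. The deleted segment is not given in the sources used here, so that peak does not check the deletion. Blast and progenitor markers (Kit, Cd34, Myb, Gata2 and Spi1) had TSS peaks at 5 of 5 genes, with summed levels of 2068 to 2090 after oil and 2118 to 2424 after tamoxifen. T cell markers had them at 2 of 5 (Cd3e, Cd3d and Cd2 without), at 32.0 to 40.0 and 29.8 to 37.9. B cell markers had them at 2 of 5 (Cd79b and Pax5 among those without), at 92.6 to 118.3 and 90.2 to 143.1. Erythroid markers (5 of 5) summed to 1153 to 1264 and 1019 to 1141, and mature myeloid markers (2 of 5; Ly6g, Csf1r and S100a8 without) to 404.7 to 448.7 and 444.4 to 517.3. The blast and erythroid sums did not overlap between groups, as was the case for 18.1% of all single peaks within 1000 bp of a TSS. Cd34 alone set the blast sums apart (log2 fold change 1.50, DESeq2 adjusted p = 7.3e-12), and without it they ran from 1951 to 2016 after oil and from 1905 to 2091 after tamoxifen. Within 100000 bp of a TSS, 3 of 99 blast and 4 of 39 erythroid marker peaks had a DESeq2 adjusted p under 0.05 (all peaks, 1.38%). The counts were 1 of 10 for T cell, 0 of 37 for B cell and 0 of 27 for mature myeloid markers. The part of such shifts in the peaks described above was not tested.

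By Pearson's r over the 6 libraries, the promoter peaks most like the mean of the 6 members with a peak within 1000 bp of the TSS were those of Brat1 (0.999), Cdkn3 (0.999) and Gtpbp1 (0.999), of 14452 genes compared. The member mean was highest in tamoxifen replicate 3 (1.19 SD units) and oil replicate 1 (0.80), near 0 in oil replicate 2 (-0.010) and tamoxifen replicate 1 (-0.040), and lowest in the replicate 4 libraries of both groups (-0.97 in each). Total tags stood in nearly the reverse order, at 57.4, 58.2, 66.4 and 67.9 M for the first 4 and 74.7 and 69.4 M for oil and tamoxifen replicate 4. The part of depth in this pattern was not tested. With 6 points and so many genes, such values are a description only.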

How the data were processed

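ATAC-seq of 3 oil and 3 tamoxifen libraries was analysed from 1 table. The authors used Bowtie2 (mm10) for alignment and HOMER for peaks, which were called in each group and merged. The value they deposited for each peak is an estimated count, the unnormalised tags in steps of 0.5, limited to 3 at any position. Versions of these tools are not given in the sources used here.

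Tags were rounded to whole numbers, and all 175929 peaks were fitted together with DESeq2 1.42.0 (R 4.3.3; Wald test, two-sided, Benjamini-Hochberg adjustment). Normalised tags are tags divided by the DESeq2 size factor. Calls required both an adjusted p under 0.05 and a fold change over 2. Intervals are 95% Wald intervals. Alternatives comprised edgeR 4.0.16 (robust quasi-likelihood), other size factors, a filter on low counts (10 tags in 3 libraries), separate fits of proximal and distal peaks, TSS limits of 10000 and 3000 bp, a replicate block, and leaving out each library. The fits were tested on simulated data.

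Text names, for each gene, the peak nearest its TSS, the most open distal peak, the 10 peaks with the smallest p, and, of the other pathway genes, those at an adjusted p under 0.05 and the 5 with the smallest p. Ebp, Fads2, Scd1, Usp18 and the Idi1 peak at +262 bp were named outside this rule. Some genes of the lists are not reported here by name. The members and lists were chosen with earlier results of these data known. Promoter sequences are from RefSeq and peak sequences from GRCm38.p6.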

Additional observations from a re-analysis of the deposited data

How the results depend on the processing

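Replicate numbers 1 and 4 occur in both groups, and the labels do not say whether like-numbered libraries were handled together. The deviations of like-numbered libraries from their group means correlated at -0.0434 and 0.0511. Unlike numbers were not compared, so these values cannot decide whether the libraries were paired. With a replicate block on those 4 libraries, 0 member peaks had an unadjusted p under 0.05, as did 0.822% of all peaks, 0 of the other pathway peaks had an adjusted p under 0.05, and 13 member peaks had no adjusted p. edgeR called 1 member peak and put 2 at an adjusted and 11 at an unadjusted p under 0.05 (all peaks, 1.01%, 2.91% and 17.7%). It put 10 of the 434 other pathway peaks at an adjusted p under 0.05 (all peaks, 2.91%). Limits of 10000 bp (35 peaks) and 3000 bp (23 peaks) left 0 at an unadjusted p under 0.05. Without 1 library each, member peaks numbered 0 to 1 at an adjusted p (all peaks, 0.351% to 3.73%) and 2 to 11 at an unadjusted p (all peaks, 4.33% to 13.7%). The member median was -0.066 (without oil replicate 4) to -0.017 (without tamoxifen replicate 4). Of the 434 other pathway peaks, 1 to 15 had an adjusted p under 0.05, the 15 being without tamoxifen replicate 4 (all peaks, 3.73%). Tamoxifen replicate 4, the tamoxifen library most like the oil libraries, gave each highest value when left out (11 member peaks, 19.3%, beside 13.7% of all peaks). Of the 5 pathway peaks, Fdft1 alone stayed under 0.05 in all 6 fits without 1 library.

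Small changes reversed sign in some alternatives, at the promoter peaks other than that of Insig1 and at some distal peaks. The Insig1 promoter peak stayed above 0 in every alternative (0.0066 to 0.080). Without 1 library each, log2 values ran from -0.047 to 0.034 for Hmgcs1, -0.047 to 0.019 for Idi1, -0.030 to 0.081 for Sqle, -0.025 to 0.064 for Cyp51, -0.0014 to 0.076 and -0.024 to 0.025 for Dhcr7 at +6557 and +6988 bp, -0.051 to 0.052 for Srebf2, -0.038 to 0.37 for Idi1 +3192, -0.014 to 0.18 for Cyp51 +64137 and -0.070 to 0.056 for Srebf2 +18218. The replicate block gave -0.051 (Sqle), -0.015 (Cyp51), -0.024 (Srebf2), -0.035 (Idi1 +3192) and -0.0034 (Cyp51 +64137). Scaling to tags in peaks gave -0.00088 (Cyp51), -0.0050 (Srebf2) and -0.010 (Dhcr7 +6988), scaling to all mapped tags 0.0075 (Hmgcs1), and separate fits 0.013 (Hmgcs1), 0.0023 (Idi1) and -0.013 (Dhcr7 +6988). The cause was not tested. The weak peaks had the larger standard errors.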
